A study of Mus musculus with 2 samples.

Results

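The genes of the neurotrophin system described here encode the ligands Bdnf, Ntf3 and Ntf5, the tyrosine kinase receptors Ntrk2 and Ntrk3, the receptor Ngfr and the sorting receptor Sort1. They were taken as all probe sets of the array that name 1 of these 7 genes and no other. For 6 of the 7 genes there were 25 such probe sets, among 18194 genes named by 34958 probe sets in all. Ntf3 was not analysed here. The signals came from 2 Affymetrix arrays of E10.5 mouse otocyst cells, 1 per sorted fraction. The otocyst is the epithelial vesicle that becomes the inner ear. Both populations came from the same dissociated otocysts of embryos heterozygous for Tg(ETAR-EGFP)14Imeg, a transgene that the labels give as driving EGFP mainly in ventral and dorsomedial otocyst and not in the dorsolateral wall. Cells with EGFP are called positive cells here and those without it negative cells, and the labels name both as otocyst epithelial. Because both fractions carry the transgene, neither is a wild-type control. The labels do not give the number of embryos behind each fraction.

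Neurotrophins are secreted growth factors of neurons, made as longer precursors that furin and related proteases cut. Mature Bdnf and Ntf5 bind the tyrosine kinase receptor TrkB, encoded by Ntrk2, and Ntf3 binds mainly TrkC, encoded by Ntrk3. All of them bind p75, encoded by Ngfr, and uncut precursors bind p75 together with sortilin, encoded by Sort1. In the inner ear the sensory epithelium makes the ligands and the cochleovestibular neurons, which leave the same epithelium, carry the Trk receptors and depend on them for survival.

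Of these genes, Bdnf had the clearest difference, with a higher signal in positive cells in both of its probe sets. The 3 receptor genes Ntrk2, Ntrk3 and Ngfr had 9 probe sets for which a ratio could be formed. All 9 had lower signals in positive cells, mostly by less than 2-fold. Of the 9, 1437560_at of Ntrk2 and 1450177_at of Ngfr exceeded the floor in negative cells only, which fixed their direction. After quantile normalization the lower signal held for 8 of the 9, the dim Ntrk3 probe set 1422329_a_at then being at 0.06. Ntrk3 probe sets below both floors were mixed in direction. Sort1 had similar signals in both populations. Neither fraction has a replicate array, so no difference could be set against a spread between samples and no p-value is given. Every statement describes these 2 arrays, and their number limits the precision.

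Where the genes start is shown by sequence for Bdnf and Ngfr, the member with the highest ratio and the one with the lowest. RefSeq promoter windows on GRCm38.p6, from 250 bases before to 50 bases after a transcription start, were available for 4 of the 7 genes, Bdnf, Ntf3, Ntrk2 and Ngfr. Bdnf had 7 windows, since it is transcribed from several starts, and Ngfr had 1. The arrays do not say which start was used. The motifs TGACG and GGGCGG were searched on both strands. TGACG is the core of the site of the cAMP-responsive factor CREB, and GGGCGG is the GC box bound by Sp1. The first window, Bdnf at chr2:109692186-109692485 on the plus strand, was the only 1 of the 7 Bdnf windows with TGACG. The second, Ngfr at chr11:95587649-95587948, is read on the minus strand. Capitals mark matches to either motif.
Bdnf: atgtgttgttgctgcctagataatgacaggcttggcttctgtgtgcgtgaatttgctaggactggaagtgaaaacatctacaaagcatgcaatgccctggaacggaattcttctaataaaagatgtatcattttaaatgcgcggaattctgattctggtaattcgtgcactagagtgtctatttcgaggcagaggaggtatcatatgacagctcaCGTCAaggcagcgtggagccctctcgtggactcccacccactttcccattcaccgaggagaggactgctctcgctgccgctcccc
Ngfr: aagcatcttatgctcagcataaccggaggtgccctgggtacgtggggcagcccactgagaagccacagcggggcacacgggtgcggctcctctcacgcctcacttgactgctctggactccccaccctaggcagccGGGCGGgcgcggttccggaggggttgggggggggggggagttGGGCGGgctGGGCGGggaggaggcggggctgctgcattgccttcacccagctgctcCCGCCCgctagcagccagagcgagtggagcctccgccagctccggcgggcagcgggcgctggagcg
The Bdnf match begins 35 bases before the start and reads CGTCA, the reverse complement. Among 32851 windows of 300 bases, 20.8% held TGACG. Ngfr had 4 GC boxes, beginning 114, 72, 63 and 16 bases before its start, and a GC content of 71.7%, against a median of 52.7% over all windows. A GC box was present in 35.7% of all windows, in 2 of the 7 Bdnf windows, and in the single Ntrk2 window. The windows of Bdnf had a GC content of 38.7% to 58.0%. These matches describe the letters of the windows and say nothing of factor binding.

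The deposited values are MAS5 signals, in arbitrary units, for 45101 probe sets per array, and both arrays had the same trimmed mean. The median signal was 17.6 in positive and 20.6 in negative cells, so the arrays were not level at low signals. A floor was set at each array's 40th percentile, 10.4 in positive and 12.4 in negative cells. The brightest of 27 bacterial control probe sets reached 12.3 and 9.0, so signals of positive cells up to 12.3 are within the range of these controls. Of the 25 member probe sets, 12 were above the floor on both arrays, 3 in negative cells only and 10 on neither array, and no ratio is given for those 10. Where 1 signal was at the floor, the fold against the floor is a lower bound. Where a gene had several probe sets, the brightest stood for the gene in counts. Between probe sets of 1 gene, the log2 ratio had a pooled SD of 0.31 over 5640 genes, which covers differences between probes and not between embryos, sorts or hybridisations.

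**Figure D1:**
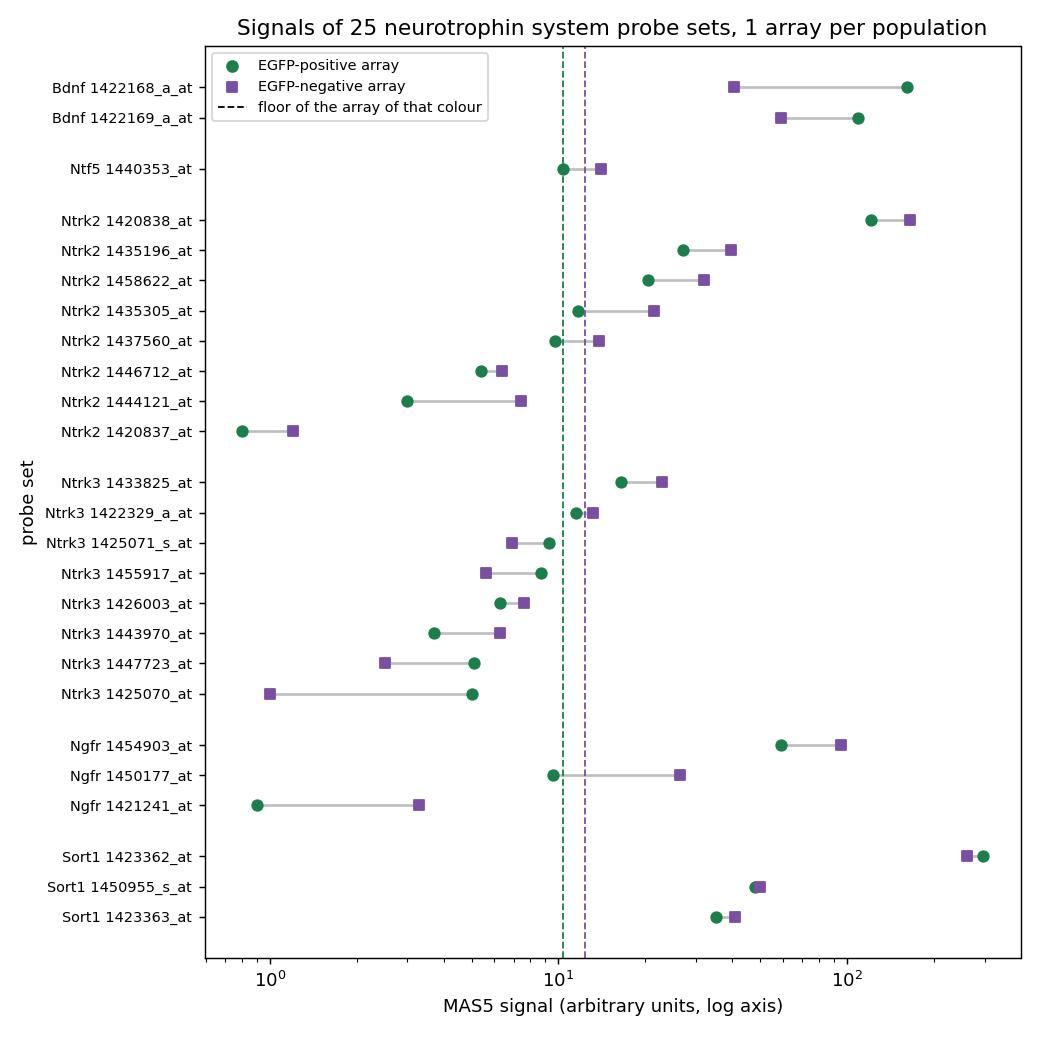
MAS5 signal (log axis, arbitrary units) of each of the 25 probe sets in positive cells (green circles) and negative cells (purple squares), with 1 array each and each array's floor as a dashed line. Both Bdnf probe sets lie to the right in positive cells, all 5 Ntrk2 and both Ngfr probe sets that exceed a floor lie to the left, and 6 of 8 Ntrk3 probe sets lie below both floors.

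Among the ligands, Bdnf was measured by 2 probe sets designed from the same sequence record. Probe set 1422168_a_at had a signal of 161.4 in positive and 40.5 in negative cells, which is 3.99-fold higher in positive cells, a log2 ratio of 1.99. Probe set 1422169_a_at had 109.3 and 59.3, which is 1.84-fold higher, a log2 ratio of 0.88. All 4 signals were well above the floors, and the populations differed in the same direction in both probe sets. The size was not settled, since the log2 ratios differed by 1.11, more than 3 times the pooled SD. Of 3195 genes with 2 probe sets above both floors, 87 (2.72%) had ratios at least as far apart. The mean log2 ratio of the 2 probe sets was 1.44, and the 2-fold threshold was passed by the brighter probe set only.

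Ntf5, a ligand of the same receptor as Bdnf, was at the limit of measurement. Its single probe set had a signal of 10.4 in positive cells, exactly the floor, and 14.1 in negative cells. Negative cells were at least 1.36-fold higher against the floor, and 1.15-fold higher against the brightest bacterial control. The probe set exceeded the floor in negative cells only, which fixed its direction.

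Among the Trk receptors, Ntrk2 was the better measured, with 4 of its 8 probe sets above both floors. The brightest, 1420838_at, had a signal of 121.6 in positive and 165.7 in negative cells, a log2 ratio of -0.45 or 1.36-fold higher in negative cells. Probe set 1435196_at had 27.0 and 39.7, a log2 ratio of -0.56, and 1458622_at had 20.5 and 32.0, a log2 ratio of -0.64. Probe set 1435305_at had 11.7 and 21.5, a log2 ratio of -0.88, with its signal in positive cells within the range of the bacterial controls. The dimmer 1437560_at had 9.7 and 13.8, so that negative cells were at least 1.33-fold higher. All 5 were thus lower in positive cells, though 1437560_at exceeded the floor in negative cells only, which allows no other direction. The 4 above both floors had a mean log2 ratio of -0.63 and an SD of 0.18, and none reached 2-fold. Of 579 genes with 4 probe sets above both floors, 99 (17.1%) had all 4 lower in positive cells, so agreement of this kind was common. The other 3 probe sets had signals of 0.8 to 7.4. One of these, 1420837_at, at 0.8 and 1.2, was designed from the same sequence record as the brightest one, so probe sets of Ntrk2 differed far more in brightness than the populations did.

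Ntrk3 was near the floor throughout. Probe set 1433825_at had a signal of 16.5 in positive and 22.9 in negative cells, a log2 ratio of -0.47, and 1422329_a_at had 11.5 and 13.2, a log2 ratio of -0.20. Both were lower in positive cells, but the second lies within the range of the bacterial controls there. The other 6 probe sets, with signals of 1.0 to 9.3, were below both floors. Some were higher in positive than in negative cells, at 9.3 and 6.9, 8.7 and 5.6, 5.1 and 2.5, and 5.0 and 1.0. The rest were lower, at 6.3 and 7.6, and 3.7 and 6.3. Their direction was thus mixed, at signals too low for a ratio. At such signals the ratios of Ntrk3 were no larger than about the error between probe sets, an SD of 0.41 on the log2 scale over 950 genes with a mean signal under 50.

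Ngfr, the p75 receptor gene, had the lowest ratio of the members. Its brightest probe set, 1454903_at, had a signal of 59.2 in positive and 95.3 in negative cells, 1.61-fold higher in negative cells or a log2 ratio of -0.69. Probe set 1450177_at had 9.6 and 26.5, so that negative cells were at least 2.55-fold higher against the floor and 2.15-fold higher against the brightest bacterial control. Both probe sets were lower in positive cells, but only the dimmer one passed 2-fold. That dimmer probe set exceeded the floor in negative cells only, which fixed its direction. The third, 1421241_at, had 0.9 and 3.3 and gave no ratio.

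Sort1, which encodes sortilin, was the most even member. Its brightest probe set, 1423362_at, had a signal of 297.3 in positive and 261.5 in negative cells, a log2 ratio of 0.19. The others were slightly lower in positive cells, with 48.1 against 49.9 and 35.3 against 40.8, log2 ratios of -0.05 and -0.21. The 3 probe sets did not agree in direction, and their log2 ratios had an SD of 0.20 around a mean of -0.03.

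Counted by gene, 1 of the 6 measured members, Bdnf, was at least 2-fold higher in positive cells, 0 were at least 2-fold higher in negative cells and 5 were not past 2-fold, of which Ntf5 had only a bound. Over all 13087 genes with a ratio, 388 (2.96%) were at least 2-fold higher in positive and 1019 (7.79%) in negative cells. Quantile normalization of the arrays gave 503 and 822, which raised the share of higher calls from 27.6% to 38.0%. The ratio of Bdnf in its brighter probe set was higher than that of 99.7% of these genes. Its other probe set, at 0.88, would rank lower. Ngfr was higher than 12.4%, Ntrk3 than 18.2%, Ntrk2 than 19.1% and Sort1 than 70.4%, and the bound of Ntf5 was higher than 19.3%. The median log2 ratio was -0.44 over the 6 members and 0.01 over all genes. In order of ratio, Ntrk3 and Ntrk2 lay at -0.47 and -0.45 and were not separable from each other or from Ngfr at the error between probe sets. Taking the dimmest probe set above the floor for each gene in place of the brightest, no member was 2-fold higher in positive cells and Ngfr was the 1 that was 2-fold higher in negative cells.

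**Figure D2:**
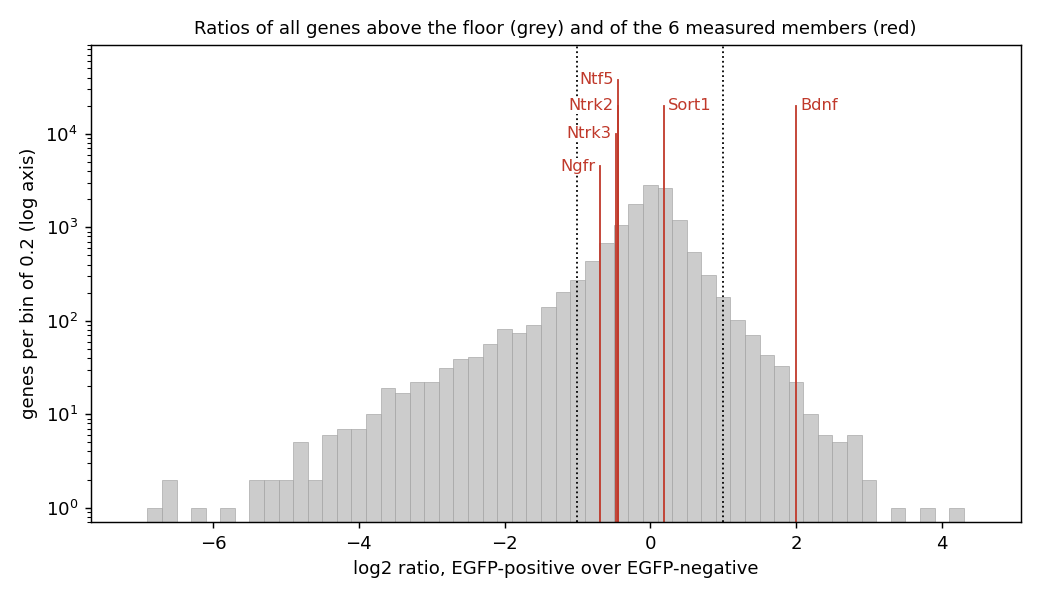
Histogram of the log2 ratio of positive over negative cells for 13087 genes (number of genes on a log axis), with the 6 measured members as red lines of arbitrary height and 2-fold limits dotted. Bdnf lies at 1.99 in the upper tail, Sort1 at 0.19, and the other 4 between -0.69 and -0.44, of which Ntf5 is a bound.

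Markers of cell types were read on the same arrays, since the sorted cells may hold others than otic epithelium. All 12 epithelial markers, among them Epcam and Cldn6, were at least 2-fold higher in positive cells, with a median log2 ratio of 1.42 and summed signals of 10900 against 4044. This counts the brightest probe set of each gene. A dimmer probe set of Epcam was at 0.50, and 1 of Grhl2, named after its values were seen, was at -0.92. Of 11 measured otic epithelial markers 8 were, with a median of 1.53 and 5825 against 3390. Among them, Otx2 was at the floor in negative cells, which fixed its direction. The other 3 otic markers within 2-fold were Tbx1, Sox9 and Oc90, the last with 939.8 against 1405.7. In the other direction, 13 of 14 mesenchyme markers were at least 2-fold higher in negative cells, with a median of -3.79 and summed signals of 680 against 7015, Dcn being the exception at 0.45. The same held for 7 of 8 neural crest and glial markers (median -2.37, 1486 against 1809, Erbb3 being the exception at 1.46), and for 5 of 9 hindbrain markers (median -1.43, 522 against 2236). It also held for all 9 of endothelium (-2.20, 70.6 against 627), all 7 of erythroid cells (-5.16, 2990 against 21183) and all 7 of leukocytes (-3.35, 63.1 against 1229). At or below the floor in positive cells were 3 mesenchyme, 4 crest and glial, 6 hindbrain, 6 endothelial, 3 erythroid and 4 leukocyte markers, including Tfap2b, Olig3, Hes5, Cldn5, Hemgn and C1qb. These were measured through negative cells only, which fixed their direction, so the counts above hold markers that could not have gone the other way. Of the crest and glial sum of 1486 in positive cells, Erbb3 alone gave 1405, against 511.1 in negative cells. Of the hindbrain sum of 522 in positive cells, Msi1 alone gave 448.4, against 361.9 in negative cells. Nkx6-1 and Pou3f2, hindbrain markers not counted past 2-fold, had only bounds. Tbx1, Sox9, Oc90, Dcn, Erbb3, Msi1, Nkx6-1 and Pou3f2 were named after their values were seen. The negative cells thus held markers of cells other than the otic epithelium of their label. Positive cells held some such markers as well, at lower signals, with sums of 2990 for erythroid and 680 for mesenchyme markers. Col3a1, for example, had 135.5 against 2733. In a bulk sample, fewer cells of a type and less RNA per cell cannot be told apart. The part of these cell types in the ratios of Bdnf, Ntrk2 and Ngfr was not tested.

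Read against the epithelial markers, the members took other places. Relative to the epithelial median of 1.42, the probe sets of Bdnf lay at 0.58 and -0.53, on either side of it. The receptors lay at -1.86 for Ntrk2, -1.89 for Ntrk3 and -2.10 for Ngfr, and Sort1 at -1.23, all 2-fold or more below it. In the brightest probe set, the signs of Ntrk2, Ntrk3, Ngfr and Ntf5 were the same under all scalings tried, whereas that of Sort1 turned with this centring. Since this centring and that on the median of all genes lower every ratio, they could not turn one already below 0. The dimmer Ntrk3 probe set, 1422329_a_at, turned to 0.06 after quantile normalization. The median of all genes moved to -1.40 on the scale centred on epithelial markers, so the receptors there lay 0.46 to 0.70 below the median gene.

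Early neurons of the otic lineage are known to carry Trk receptors. Of 16 markers of otic neuroblasts and early neurons, 2 were at least 2-fold higher in positive cells and 4 in negative cells, with a median log2 ratio of -0.54, and Prph was at the floor in positive cells. Their summed signals were 4735 against 5528. The 2 were Neurog1 (216.7 against 98.7) and Pou4f1 (136.5 against 60.9), which specify the sensory neurons. Their second probe sets were under 2-fold, at 0.46 and 0.62. Neurod1, at 0.98 in its brightest probe set, had 1.44 in the other, and Stmn2, at -0.84, had -1.19. These calls thus depend on the probe set. The 4 were genes of neurites and axons. They included the neurofilament genes Nefl (191.9 against 720.9) and Nefm (361.0 against 925.0). The others were the intermediate filament gene Prph (1.7 against 27.3) and Gap43 (113.6 against 396.5). Prph exceeded the floor in negative cells only, which fixed its direction. Markers within 2-fold lay on both sides of 0, such as Isl1 at 0.60 and Nhlh2 at -0.75. Neurog1, Neurod1, Pou4f1, Nefm, Stmn2, Isl1 and Nhlh2 were named after their values were seen. The part of such neurons in the receptor ratios was not tested.

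Other genes of neurotrophin handling and signalling, and of related families, were read from 5 lists. In these 5 lists there were 59 entries, of which 53 had a probe set naming them alone and 47 a ratio. Of these 47, 1 was at least 2-fold higher in positive cells, 6 in negative cells and 40 were not past 2-fold, of which Sorcs3 and Rtn4r had only bounds, with a median of 0.11 against 0.01 over all genes. As shares these are 2.13% and 12.8%, beside the 2.96% and 7.79% of all genes. A list for a further ligand and Trk receptor was not analysed here.

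None of 15 Trk adaptors and effectors and none of 12 p75 partners passed 2-fold in the brightest probe set, with medians of 0.11 and 0.19. Since 2.96% and 7.79% of all genes passed it, lists of this size would hold few such genes in any case. Rtn4r, a surface receptor gene that was named after its values were seen, had 20.5 against 4.3, at least 1.65-fold higher in positive cells, and this bound does not place it within 2-fold. Among the Trk adaptors, Shc1, which docks on the activated receptor, had 86.8 in positive and 123.2 in negative cells, and Frs3, a docking protein gene, was 1.38-fold higher in positive cells. Kidins220, a membrane scaffold of Trk receptors, had 264.3 and 348.7, and the phospholipase gene Plcg1 had 380.4 and 318.3. Among the p75 partners, Bex3 had 1575 and 1438 and Maged1 1183 and 1174. These 6 genes were named after their values were seen, and none differed by 2-fold in its brightest probe set. A dimmer probe set of Kidins220 did, at a log2 ratio of -1.26.

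Of 10 measured genes of precursor processing and sorting, 2 were at least 2-fold higher in negative cells and 0 in positive cells, with a median of -0.20. Plat, the tissue plasminogen activator gene, whose product activates the plasmin that can cut neurotrophin precursors, had 33.5 against 105.4, 3.15-fold higher in negative cells. The other probe set of Plat was at 0.07. Pcsk5, a furin-like convertase gene, had 20.8 against 64.9, 3.12-fold higher, and its second probe set was at -0.62. Furin itself had 86.1 and 76.4, a log2 ratio of 0.17. Sorl1 and Sorcs2, relatives of Sort1, had log2 ratios of 0.23 and 0.20 in their brightest probe sets, and another of Sorl1 reached 0.52, while the dim Sorcs3 was below the floor in positive cells, with 8.8 against 20.2. Furin, Sorl1, Sorcs2 and Sorcs3 were named after their values were seen.

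Of 10 measured genes of the GDNF and CNTF families and their receptors, 1 was at least 2-fold higher in positive and 4 in negative cells, with a median of -0.43. The 4 became 2 with the floor at the 60th percentile, with the pseudocount, after quantile normalization and with the median or the dimmest probe set. The 1 became 0 with that floor and with centring on epithelial markers. The ligand gene Gdnf had 44.0 against 11.2, at least 3.55-fold higher in positive cells. Gdnf exceeded the floor in positive cells only, which fixed its direction. Its signalling receptor Ret had 28.9 against 126.0, 4.36-fold higher in negative cells, with its second probe set at -1.45. The receptor genes Lifr, Cntfr and Gfra2 were 2.99-fold, 2.20-fold and 2.14-fold higher in negative cells, and their least different probe sets were at -0.38, -0.82 and -0.19. Gfra1, the binding receptor of Gdnf, had 409.0 against 262.7, and its 3 probe sets ranged from 0.44 to 0.79. Its relative Gfra3 had 71.3 against 41.5, a log2 ratio of 0.78. Both were named after their values were seen. On the scale centred on epithelial markers, the ratio of Gdnf was 0.41 and that of Gfra1 -0.78. Mesenchyme and crest markers, with medians of -3.79 and -2.37, were higher on the same array as Ret and Lifr, and their part was not tested.

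By log2 ratio over the 2 arrays, the listed genes measured on both arrays that lay nearest to the brighter Bdnf probe set were Eya4, a transcriptional coactivator gene of the otic placode (1.79), and Fbxo2, an otic ubiquitin ligase subunit gene (1.77). Gdnf, with a bound of 1.83, cannot be ranked. The second probe set of Bdnf, at 0.88, was not near either gene.

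**Figure D3:**
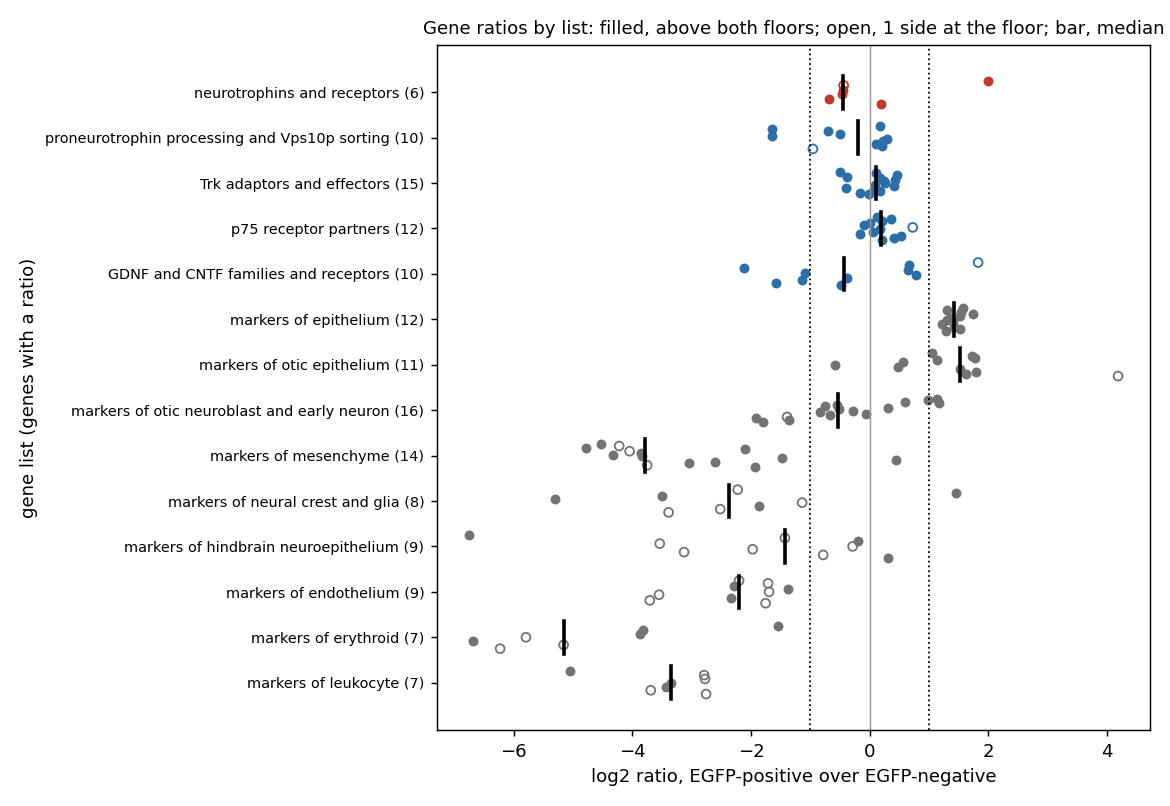
Log2 ratio of positive over negative cells for each gene of each list, filled where both signals were above the floor and open where 1 was at it, with the list median as a bar and 2-fold limits dotted. The filled points of the p75 partners and Trk adaptors lie inside the limits, epithelial markers lie around 1.42 and mesenchyme markers around -3.79, and the members spread from -0.69 to 1.99.

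**Figure D4:**
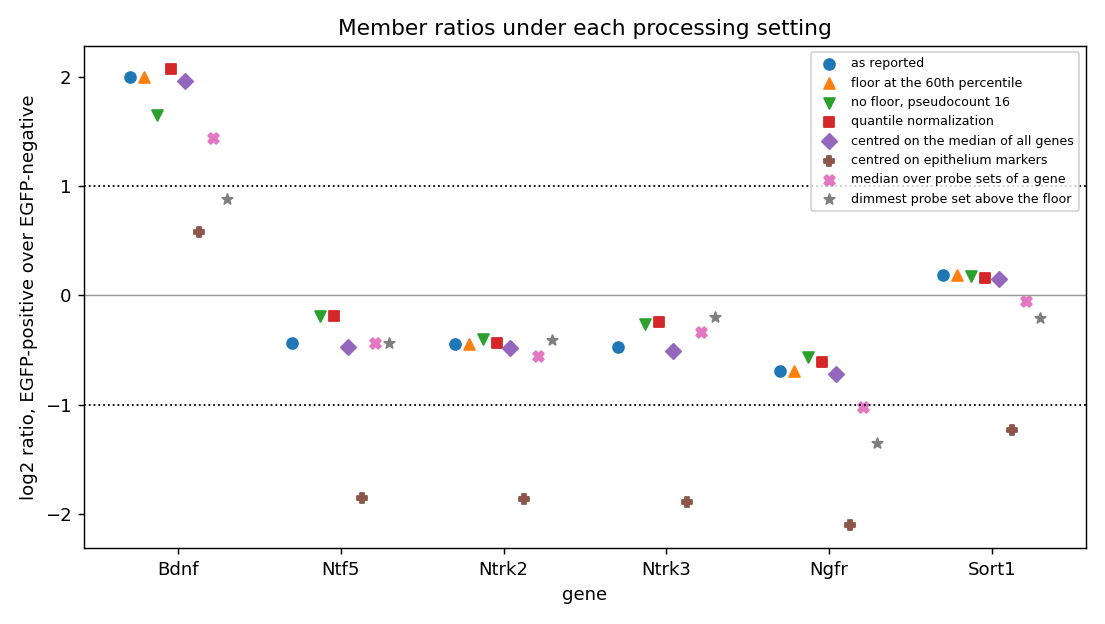
Log2 ratio of each of the 6 measured members (y axis) as reported and under 7 other processing settings, with 2-fold limits dotted. Bdnf stays above 0 in all 8, from 0.58 to 2.07, the receptor genes Ntrk2, Ntrk3 and Ngfr stay below 0 in every setting that gave a value, and centring on epithelial markers lowers all members by 1.42. Apart from quantile normalization and the choice of probe set, no setting could turn a ratio already below 0.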

How the data were processed

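Total RNA of each sorted population was labelled with biotin and hybridised to 1 array. The deposited intensities are linear MAS5 signals per probe set, made with MAS5 5.0 per the submitters' processing notes. No batch is given in the labels, and with 1 array per population array and population cannot be told apart.

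Probe sets were named from the platform annotation, with symbols updated through the GRCm38.p6 RefSeq table. Of 45101 probe sets, 932 named several genes and 9211 were unnamed here. Signals were raised to each array's 40th percentile and log2 ratios of positive over negative cells formed. A signal above its own floor but not above that of the other array gave no bound and no ratio. At least 2-fold, a log2 difference of 1, counted as different. Python 3.11.15, numpy 2.4.6 and pandas 2.3.3 were used, and the procedure was tested on simulated data with known folds. The simulated folds were larger than that of any member, so they do not bear on differences of the members' size. In all, 7 alternatives were computed.

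The members and gene lists were chosen with earlier results of these data known. Named were all member probe sets, up to 4 genes past 2-fold in each direction per pathway list, up to 3 of the most extreme genes per marker list and the 3 genes nearest to a member past 2-fold. Other genes are marked where named.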

Additional observations from a re-analysis of the deposited data

How the results depend on the processing

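By gene, Bdnf stayed higher and Ntrk2, Ntrk3, Ngfr and Ntf5 lower in positive cells under every alternative that gave a value. Centring on epithelial markers or on the median of all genes lowers every ratio, so neither could turn those already below 0. The pseudocount and the higher floor also keep the sign of a signal that is lower in positive cells. The dimmest probe sets of Ntrk2, Ngfr and Ntf5 exceeded the floor in negative cells only, which fixed their direction. Only quantile normalization and some choices of probe set could have turned these genes. Ntf5 has 1 probe set, so the choice among probe sets left it unchanged. Ntrk3 and Ntf5 gave no value with the floor at the 60th percentile. Quantile normalization brought the dim Ntf5 from -0.44 to -0.18 and Ntrk3 from -0.47 to -0.25. The brighter Ntrk2 went from -0.45 to -0.44 and Ngfr from -0.69 to -0.61. After quantile normalization the probe sets 1422329_a_at of Ntrk3 and 1450955_s_at of Sort1 both turned to 0.06. Of the 35 recomputed counts and medians that answer a comparison, 23 stayed within their limits, 11 moved and 1 reversed. Centring on epithelial markers moved the members counted higher in positive cells from 1 to 0 and in negative cells from 0 to 5. It moved the pathway counts to 0 and 39 and reversed their median to -1.31, as it did for the Trk adaptors at -1.31 and the p75 partners at -1.23. Sort1 and its probe set 1423362_at reversed to -1.23. The second Bdnf probe set, 1422169_a_at, turned from 0.88 to -0.53. The shifts with this centring follow from subtracting 1.42. With no centring, another choice of probe set also put Sort1 below 0, at -0.05 for the median and -0.21 for the dimmest. The dimmest probe set gave 0 members higher in positive and 1 in negative cells, and the median over probe sets gave 1 in negative cells, Ngfr at -1.02. Both gave 3 pathway genes higher in negative cells in place of 6. The floor at the 60th percentile also gave 3, with 0 in positive cells, Gdnf then being at 0.23. Over all genes, the counts higher in positive and in negative cells were 388 and 1019. They were 237 and 478 with that floor, 238 and 647 with a pseudocount of 16, 503 and 822 after quantile normalization, and 18 and 11326 after centring on epithelial markers. No paired analysis was possible because each group has 1 sample, and no replicate could be left out. Signals near the floor limit Ntf5, Ntrk3 and the dim probe sets of Ntrk2 and Ngfr.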
